A study of Mus musculus with 8 samples.

Results

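Bcl2a1a, Bcl2a1b, Bcl2a1d and Mcl1 are 4 of the 10970 genes in the table of single mouse neutrophils, chosen by name as the survival genes of the BCL2 family that neutrophils lean on, and all 4 had a row. Donor mice were C57BL/6J males of 7 to 12 weeks. They received an intraperitoneal injection of PBS or of lipopolysaccharide (LPS, a bacterial cell wall component that sets off systemic inflammation) at 0.5 mg/kg, and neutrophils were prepared 4 h later from peripheral blood (PB) or bone marrow (BM), although the sample names give 0 h for PBS. The 4 groups are therefore PB PBS, PB LPS, BM PBS and BM LPS, with 2 labelled samples each, and each sample is 1 plate of cells from the plate set called batch 7. Neutrophils were enriched with a magnetic negative selection kit and picked singly with a mouth pipette, so the cells are a hand-picked part of an enriched suspension and not a sorted population. The labels do not say whether the 2 samples of a group came from separate mice, so the p-values measure the spread between these samples, which may be technical.

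The table held 1421 cells, 711 of them in the 8 labelled samples of batch 7 and 710 on 9 further plates of batch 6 whose names give a group only. Values are counts of unique molecular identifiers (UMIs), each meant to stand for 1 captured RNA molecule, and levels are given as CPM, the UMIs of a gene per 1000000 UMIs of the same plate. The labelled samples held 83 to 92 cells and 3240559 to 8361677 UMIs, and the batch 6 plates 44 to 95 cells and 3462146 to 12020616 UMIs. Tests used the 8 labelled samples, and the batch 6 plates stand beside them as a description, except in an alternative fit with both batches. All 11 neutrophil markers were in the table, with a summed level of 121442 to 182155 CPM on the 4 PB PBS plates and 271398 to 428005 on the other plates. PB PBS plates also held markers of other blood cells, with summed platelet markers at 288 to 2718 and NK cell markers at 41.4 to 901 CPM, against 1.41 to 124 and 0.156 to 0.859 on the PB LPS plates. The sum of monocyte or macrophage markers went the other way, with 222 to 672 CPM on PB PBS and 852 to 1468 on PB LPS plates. It was at 639 to 1145 on the BM plates. Most of the PB LPS sum was Ly6c2, at 84.8 to 193 on PB PBS, 640 to 1370 on PB LPS and 622 to 1065 on BM plates. The other markers of that list did not rise in PB. Csf1r was at 67.6 to 293 after PBS and 15.8 to 174 after LPS, and Ccr2 at 0 to 87.4 and 0. Liver markers were at 1300 and 2039 CPM in the PB PBS samples and 727 and 755 in the PB LPS samples of batch 7, and at most 1.08 on the batch 6 PB plates. The part of cells with platelet, monocyte or macrophage, or liver markers in the results was not tested. Cells with B, T and NK cell markers were left out in an alternative fit given below.

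Neutrophils are short-lived cells whose death is set by the balance between members of the BCL2 family at the mitochondrial membrane. The guards MCL1 and A1, the protein of the Bcl2a1 genes, bind and hold back the BH3-only proteins and the pore formers BAX and BAK, which would otherwise let cytochrome c out and switch on the caspases. MCL1 is a protein of rapid turnover that neutrophils need to stay alive, while Bcl2a1 is known as a gene that NF-kB switches on in inflammation. The mouse carries several Bcl2a1 copies, named a to d, on chromosome 9. Bcl2a1c was not analysed here.

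In the mm9 build with GENCODE annotation, the Bcl2a1 copies lie together on chromosome 9 and each has 2 exons. Bcl2a1d is at chr9:88618126-88626708 on the minus strand, Bcl2a1a at chr9:88851738-88857254 and Bcl2a1b at chr9:89094047-89102665, both on the plus strand. Mcl1 lies on chromosome 3 at chr3:95462643-95467099, plus strand, with 4 exons. The Bcl2a1 transcripts are 816, 816 and 817 bases long for a, d and b. Over 816 compared positions Bcl2a1a differed from Bcl2a1b at 15 positions (98.2% identity) and from Bcl2a1d at 10 (98.8%), and Bcl2a1b differed from Bcl2a1d at 7 (99.1%). These differences decide whether a read could be given to a copy, since only reads with 1 place in the genome were counted, so 3 coding windows of 30 bases are shown from each copy, 5′ to 3′, with the bases that differ among the copies in capitals. The first and the second window lie in exon 1 and the last in exon 2.
Bcl2a1a, chr9:88852198-88852227, plus strand: ccAcaagagcagattgccctggatgtaTgt
Bcl2a1b, chr9:89094507-89094536, plus strand: ccGcaagagcagattgccctggatgtaGgt
Bcl2a1d, chr9:88626219-88626248, minus strand: ccAcaagagcagattgccctggatgtaGgt
Bcl2a1a, chr9:88852267-88852296, plus strand: atGaataacacaggagaatggatacggcAg
Bcl2a1b, chr9:89094576-89094605, plus strand: atCaataacacaggagaatggatacggcGg
Bcl2a1d, chr9:88626150-88626179, minus strand: atGaataacacaggagaatggatacggcGg
Bcl2a1a, chr9:88857063-88857092, plus strand: gcagatgacaggacagAtctgggaaatgct
Bcl2a1b, chr9:89102473-89102502, plus strand: gcagatgacaggacagTtctgggaaatgct
Bcl2a1d, chr9:88618288-88618317, minus strand: gcagatgacaggacagAtctgggaaatgct
Of all 150-base windows along a transcript, 71.7% were unique to Bcl2a1a, 85.9% to Bcl2a1b and 67.8% to Bcl2a1d within the annotated family. Within the last 400 bases of the transcript these shares were 90.4%, 89.6% and 80.1%. A read without such a difference could not be assigned, so the level of each copy, and the split between the copies, are uncertain and are given beside their sum.

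The copies also resemble each other upstream of the gene. Shown is a stretch of 70 bases upstream of each RefSeq start, taken from RefSeq promoter windows and placed on mm9. The stretches run from base -130 to -61 for Bcl2a1a, -174 to -105 for Bcl2a1b and -124 to -55 for Bcl2a1d. Bcl2a1d differs here from the other copies by a short repeat and by a base near the end. Whether this bears on the response to LPS was not tested. Capitals mark GAGGAA, a hexamer known as the PU box.
Bcl2a1a, chr9:88851628-88851697, plus strand: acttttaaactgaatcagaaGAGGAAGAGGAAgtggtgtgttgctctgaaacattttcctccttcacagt
Bcl2a1b, chr9:89093937-89094006, plus strand: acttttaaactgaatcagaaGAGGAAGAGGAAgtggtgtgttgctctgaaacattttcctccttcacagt
Bcl2a1d, chr9:88626743-88626812, minus strand: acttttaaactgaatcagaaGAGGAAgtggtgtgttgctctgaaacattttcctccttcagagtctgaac
Within these stretches GAGGAA stood 2 times in Bcl2a1a and Bcl2a1b and 1 time in Bcl2a1d. On both strands of the whole 300-base windows it stood 3, 4 and 2 times in Bcl2a1a, Bcl2a1b and Bcl2a1d. GAGGAA was picked after the sequences were seen, and 28.3% of 32851 RefSeq promoter windows of 300 bases hold it on either strand. TTCNNNGAA, the core that STAT factors are known to bind, and the NF-kB consensus were searched on both strands too, and neither had a match in the windows of the 4 genes, against 8.30% and 8.46% of all windows with one. No match says only that these letters are absent from the window.

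The first question was whether LPS changed the survival genes in PB neutrophils. Bcl2a1a and Bcl2a1b rose, Bcl2a1d did not pass the test, and Mcl1 did not pass it either. Bcl2a1b had 1.19 and 3.70 CPM in the PB PBS samples and 271 and 223 in the PB LPS samples. Bcl2a1a had 2.18 and 0.617 in PB PBS and 63.2 and 164 in PB LPS. For both copies each LPS sample lay far above each PBS sample. By edgeR's quasi-likelihood test with Benjamini-Hochberg adjustment over 8478 genes, the log2 fold change was 7.60 ± 1.34 (SE) for Bcl2a1b (adjusted p = 0.00898) and 7.21 ± 1.23 for Bcl2a1a (adjusted p = 0.00932). With these, 2 of the 4 genes were called, where 3.94% of all genes tested were called in either direction. Without PB PBS sample 1 or 2 neither copy was called, with adjusted p-values of 0.0550 and 0.0936 for Bcl2a1a and 0.116 and 0.0918 for Bcl2a1b. Bcl2a1a was not called without PB LPS sample 2 either (adjusted p = 0.272).

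Bcl2a1d gave a different picture, and 2 cells held most of its UMIs in 1 PB PBS sample. It had 39.5 and 0.617 CPM in the PB PBS samples and 59.7 and 36.9 in the PB LPS samples, so that 1 PBS sample lay between the LPS samples. Of the 199 Bcl2a1d UMIs in PB PBS sample 1, 99.0% came from 2 cells, with 150 and 47 UMIs. The cell with 150 also held 1080 UMIs of monocyte or macrophage markers, 254 of T cell markers and 181 of NK cell markers, beside 25822 of neutrophil markers. The cell with 47 held 860 UMIs of T cell markers and 620 of NK cell markers, as many as its 620 of neutrophil markers. A1 is known from lymphocytes and monocytes as well as from neutrophils. The log2 fold change was 2.15 ± 1.77 (adjusted p = 0.598 by edgeR). When all cells with 10 or more UMIs of B, T and NK cell markers were left out, an alternative chosen after seeing the data, it came to 7.10 ± 1.95 with an adjusted p of 0.106, while Bcl2a1a (6.99, adjusted p = 0.0142) and Bcl2a1b (7.28, adjusted p = 0.0141) stayed called. That step removed 7 and 6 cells from the PB PBS samples and 0 cells from the PB LPS samples.

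Summing the copies avoids the question of which copy a read belonged to. The summed Bcl2a1 level was 42.8 and 4.94 CPM in PB PBS and 394 and 424 in PB LPS. In a fit with the copies as 1 row it rose by a log2 fold change of 4.99 ± 1.18 (adjusted p = 0.0426 by edgeR, where 3.93% of 8476 genes were called). The call was lost with library totals alone as the scale (adjusted p = 0.0766), without PB PBS sample 1 (adjusted p = 0.0674) and without PB PBS sample 2 (adjusted p = 0.231).

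**Figure D1:**
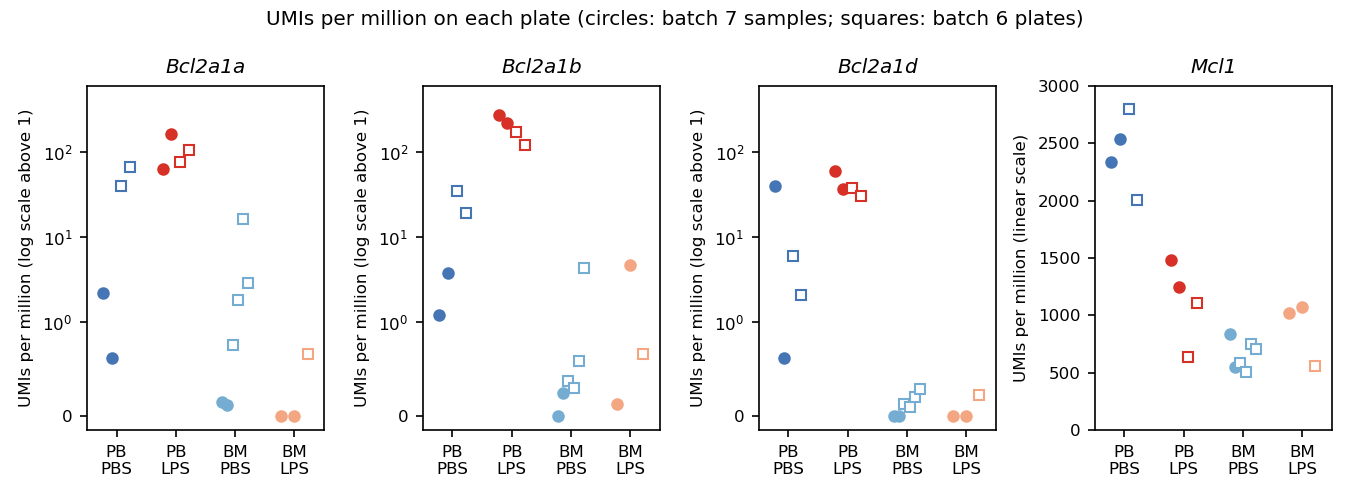
CPM of each gene on each plate, by group (circles, the labelled batch 7 samples; squares, batch 6 plates; axis logarithmic above 1 for the Bcl2a1 copies and linear for Mcl1). The PB LPS plates are at 122 to 271 for Bcl2a1b, above all PB PBS plates at up to 34.5, whereas Bcl2a1a and Bcl2a1d of PB LPS overlap PB PBS.

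On the batch 6 plates the pooled ratio of LPS to PBS was also above 1 for each copy, smaller than in batch 7 for Bcl2a1a and Bcl2a1b and larger for Bcl2a1d. Bcl2a1b was at 34.5 and 18.9 CPM on the 2 PB PBS plates and at 173 and 122 on the 2 PB LPS plates. Bcl2a1a was at 40.0 and 67.0 after PBS and at 76.0 and 105 after LPS. Bcl2a1d was at 5.90 and 2.06 after PBS and at 37.4 and 30.0 after LPS. The pooled ratio of LPS to PBS was 114 for Bcl2a1b in batch 7 and 5.76 in batch 6, for Bcl2a1a 71.2 and 1.63, and for Bcl2a1d 2.01 and 8.90. For the summed copies it was 14.6 in batch 7 and 3.24 in batch 6. Both ends of the ratio differed between the batches. The sum was at 80.4 and 88.0 CPM on the batch 6 PBS plates, above both batch 7 samples, and at 286 and 257 on the batch 6 LPS plates, below both batch 7 samples. A fit with both batches and batch as a term kept the summed call, at 4.40 with an adjusted p of 0.00463. The batch 6 plates were summed per group for this fit and so were not replicates in it. Over the 4 plates of each group, Bcl2a1b of PB LPS did not overlap PB PBS and was higher, which held for 3.85% of 9919 genes, whereas Bcl2a1a (63.2 to 164 against 0.617 to 67.0) and Bcl2a1d (30.0 to 59.7 against 0.617 to 39.5) overlapped.

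Plate sums can rest on few cells, so the share of cells that held a UMI was counted after each cell had been thinned at random to 5000 UMIs, which puts deep and shallow cells on 1 footing. A UMI of any Bcl2a1 copy was found in 40.7% (95% exact Clopper-Pearson interval 30.5 to 51.5) and 31.4% (21.8 to 42.3) of the cells of the PB LPS samples. In the PB PBS samples it was found in 5.56% (1.83 to 12.5) and 1.16% (0.0294 to 6.31). The batch 6 plates gave 41.1% and 33.0% after LPS and 7.95% and 10.7% after PBS. The intervals cover counting error of cells only. For Bcl2a1b the thinned share was 19.8 to 30.8% over the 4 PB LPS plates and 1.11 to 4.76% over the 4 PB PBS plates, for Bcl2a1a 12.1 to 20.9% and 0 to 4.76%, and for Bcl2a1d 5.81 to 12.1% and 0 to 1.19%. All 3 copies were higher without overlap in this measure, Bcl2a1d included, and 5.04% of 9919 genes were. Unthinned, 73.6% and 67.4% of the cells of the PB LPS samples and 17.8% and 9.30% of the PB PBS samples held a Bcl2a1 UMI.

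**Figure D2:**
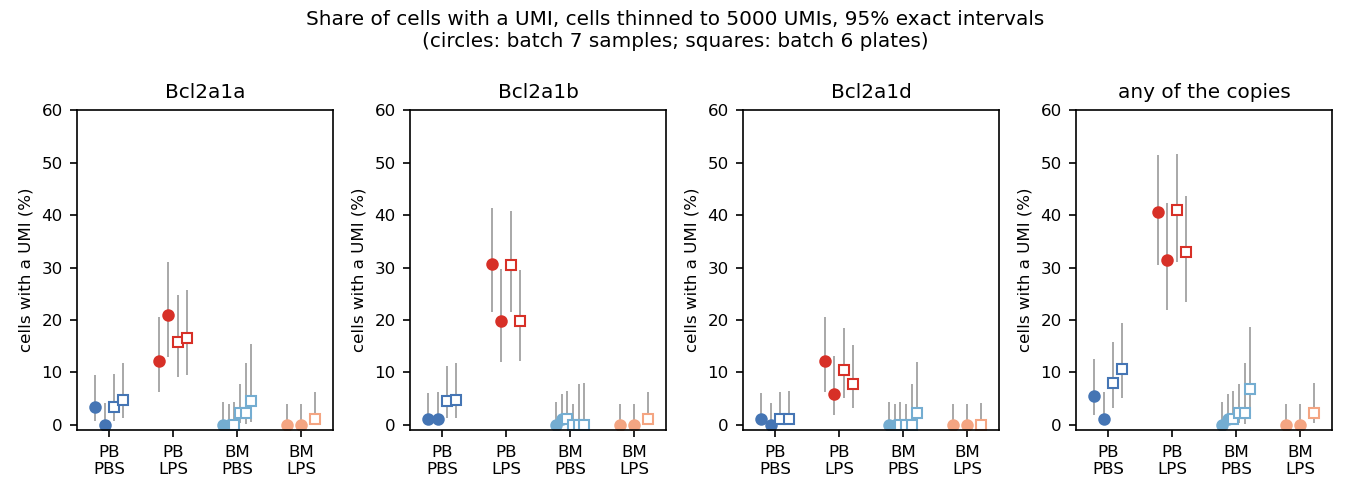
Share of cells with a UMI of each Bcl2a1 copy or of any copy on each plate, in percent, after thinning each cell to 5000 UMIs (circles, batch 7 samples; squares, batch 6 plates; bars, 95% exact intervals). The 4 PB LPS plates lie at 31.4 to 41.1% for any copy and all other plates at or below 10.7%.

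Most Bcl2a1 UMIs of a plate came from a minority of cells. In the PB LPS samples 30 of 91 and 18 of 86 cells held 10 or more Bcl2a1 UMIs, and these cells held 96.2% and 97.3% of the Bcl2a1 UMIs. On the batch 6 PB LPS plates it was 34 of 95 and 27 of 91 cells. The highest cells of the PB LPS samples held 433 and 610 Bcl2a1 UMIs. Cells with a Bcl2a1 UMI were deeper than the others, with median totals of 65858 against 29348.5 UMIs in PB LPS sample 1 and 66722.5 against 22522.5 in PB LPS sample 2. Summed monocyte or macrophage markers were at 1054 CPM in cells with a Bcl2a1 UMI and 704 in the others of PB LPS sample 1, and at 948 and 333 in sample 2. Over all cells of the samples most of this sum was Ly6c2, at 874 and 640 CPM. The part of these markers was not tested. Among the PB PBS plates 2, 0, 5 and 7 cells reached 10 UMIs. Of the 14, 2 in batch 7 and 2 in batch 6 held 10 or more lymphocyte marker UMIs, and the other 10 did not.

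In cells with 10 or more Bcl2a1 UMIs, 1 copy often made up nearly all of them. Of 109 such cells on the 4 PB LPS plates, 54 (49.5%) drew 90% or more of their Bcl2a1 UMIs from 1 copy, which was Bcl2a1b in 37 cells, Bcl2a1a in 14 and Bcl2a1d in 3. On the 4 PB PBS plates 13 of 14 such cells did, with Bcl2a1a leading in 6, Bcl2a1b in 4 and Bcl2a1d in 3. One PB PBS cell of batch 6 held 105 UMIs of Bcl2a1a with 0 of Bcl2a1b and Bcl2a1d, and another held 64 of Bcl2a1b with 0 of the other copies. Over whole plates the UMIs of PB LPS were spread more evenly, with 47.4 to 68.8% from Bcl2a1b, 16.04 to 40.9% from Bcl2a1a and 8.70 to 15.1% from Bcl2a1d. The share of a copy depends on how many of its reads could be assigned.

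**Figure D3:**
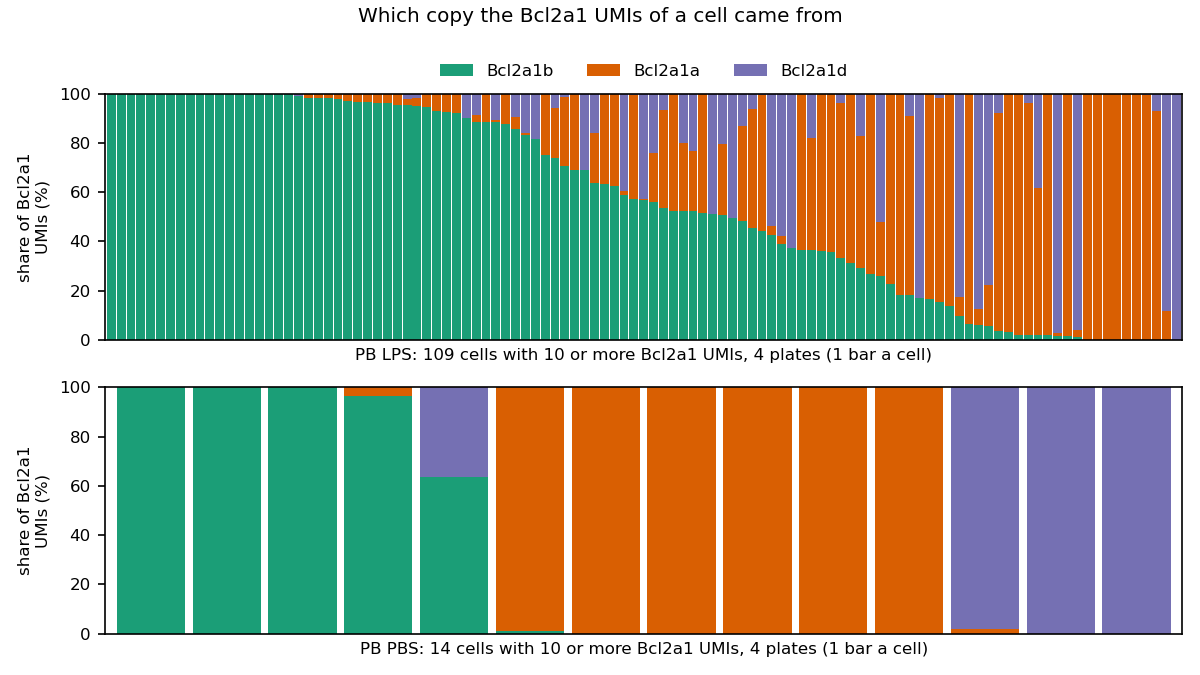
Share of the Bcl2a1 UMIs of a cell that came from each copy, in percent, for every cell with 10 or more Bcl2a1 UMIs (1 bar a cell; upper panel, 109 cells of the 4 PB LPS plates; lower panel, 14 cells of the 4 PB PBS plates). Many bars are nearly of 1 colour, with 1 copy at 90% or more in 54 of 109 cells of PB LPS and 13 of 14 of PB PBS.

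Mcl1, the guard with rapid protein turnover, was present in nearly all cells. At least 1 Mcl1 UMI was found in 95.5 to 100% of the cells of each plate. It had 2338 and 2534 CPM of all UMIs in the PB PBS samples, 1481 and 1249 in PB LPS, 840 and 553 in BM PBS and 1021 and 1073 in BM LPS. On this scale both PB LPS samples lay below both PB PBS samples. In batch 6 the PB PBS plates were at 2801 and 2005 and the PB LPS plates at 636 and 1110. Over 4 plates against 4, Mcl1 of PB LPS was lower without overlap, as were 15.5% of 9919 genes.

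The direction of Mcl1 after LPS in PB depended on the scale. TMM normalization, which sets samples equal on the bulk of genes, put Mcl1 at 1743 and 1852 in PB PBS and at 1983 and 1801 in PB LPS, and the ranges overlapped. The log2 fold change was 0.07 ± 0.22 with TMM (adjusted p = 0.941) and -0.84 ± 0.23 with library totals alone (adjusted p = 0.0630, both by edgeR). Between these scales the median log2 fold change over the tested genes moved from -0.11 to -1.02. Relative to that median, Mcl1 stood at 0.18 on both. The summed Bcl2a1 level had a positive log2 fold change on either scale, 4.99 and 4.08.

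**Figure D4:**
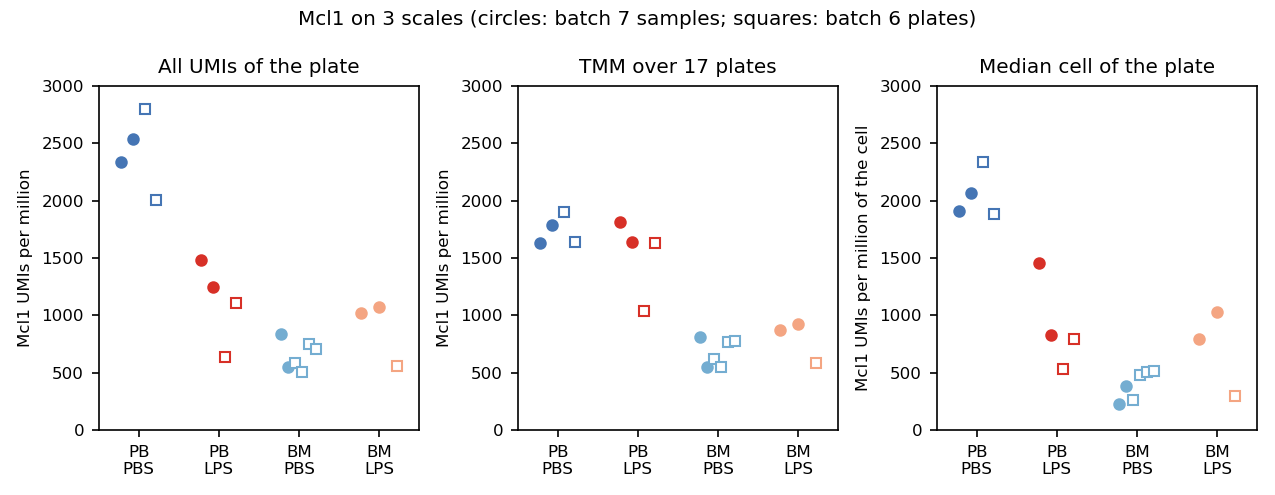
Mcl1 on each plate in CPM of all UMIs (left), in CPM after TMM over the 17 plates (centre) and as the median over the cells of the plate (right; circles, batch 7 samples; squares, batch 6 plates). PB LPS lies below PB PBS without overlap on the left, at 636 to 1481 against 2005 to 2801, and overlaps it in the centre.

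A ratio of the genes within a plate needs no such scale. In PB PBS there were 18.3 and 1.95 Bcl2a1 UMIs per 1000 Mcl1 UMIs, and in PB LPS 266 and 339. The batch 6 plates had 28.7 and 43.9 after PBS and 449 and 231 after LPS. Each PB LPS plate was above each PB PBS plate, and 8.46% of 9919 genes did the same when set against Mcl1. The ratio compares plates and not the levels of the genes, whose transcripts differ in length.

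Cell by cell, Mcl1 was spread widely within each plate. The median cell had 1908 and 2064 CPM of Mcl1 over its own UMIs in PB PBS, 1461 and 832 in PB LPS, 229 and 385 in BM PBS and 793 and 1028 in BM LPS. The 10th and 90th percentiles of PB LPS sample 2 were 113 and 2945. In the PB LPS samples Mcl1 was at 1487 CPM in cells with a Bcl2a1 UMI against 1448 in the others in sample 1, and at 1280 against 1081 in sample 2. On the batch 6 PB LPS plates it was at 594 against 1015 and at 1119 against 958, so the order was not the same on every plate. Clusters deposited by the authors divided the PB LPS samples mainly into clusters 1 and 2. Mcl1 was at 2126 in cluster 1 and 987 in cluster 2 of sample 1, and at 1701 and 1039 in sample 2, while 94 of 95 and 91 of 91 cells of the batch 6 PB LPS plates were in cluster 2. This is a description only since the clusters were made from these cells' genes.

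The second question was whether BM neutrophils answered LPS. None of the 4 genes passed the test, where 0.0708% of all genes were called (6 by edgeR, against 684 at an unadjusted p under 0.05 and 196 by DESeq2). Bcl2a1a had 1 and 1 UMIs in the BM PBS samples and 0 and 0 in BM LPS, and Bcl2a1d had 0 in all 4 BM samples, so no fold is given. Bcl2a1b had 0 and 2 UMIs in BM PBS and 1 and 38 in BM LPS, and all 38 came from 1 cell. That cell held 185752 UMIs, 71902 of them from neutrophil markers and 0 from B, T and NK cell markers. Mcl1 had a log2 fold change of 0.41 ± 0.22 (adjusted p = 0.648 by edgeR).

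For Mcl1 in BM the share of cells with a UMI separated the batch 7 groups, while the mean per cell after thinning overlapped. That mean was 5.51 and 4.37 UMIs in the BM PBS samples and 4.52 and 6.13 in the BM LPS samples. After thinning, 63.9% (52.6 to 74.1) and 64.1% (53.5 to 73.9) of the cells of the BM PBS samples held a Mcl1 UMI, against 89.0% (80.7 to 94.6) and 87.0% (78.3 to 93.1) of the BM LPS samples. In batch 6 the 4 BM PBS plates were at 63.1 to 75.6% and the 1 BM LPS plate at 65.9% (55.0 to 75.7). The median cell of that plate had 296 CPM of Mcl1, within the 260 to 518 of the batch 6 BM PBS plates. So the higher share of cells in BM LPS was seen in batch 7 and not on the batch 6 plate.

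BM plates of batch 6 had a larger share of cells with a Bcl2a1 UMI than those of batch 7. The share unthinned was 8.79 to 47.7% on the 5 batch 6 BM plates and 1.09 to 2.17% in the 4 BM samples. On the plate with 47.7%, 21 of 44 cells held 26 Bcl2a1 UMIs in all, with at most 4 in a cell. After thinning, the BM plates of batch 6 had 1.19 to 6.82%, below the 7.95 and 10.7% of the PB PBS plates of that batch, with exact intervals that overlap. On 1 BM PBS plate of batch 6, 78 of 83 Bcl2a1a UMIs came from 1 cell.

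Whether the LPS response of PB differed from that of BM was tested directly as an interaction. It was not significant for any of the 4 genes, where 1.50% of all genes were called. Bcl2a1a came to an adjusted p of 0.0661, and with BM LPS at 0 UMIs no fold is given. Bcl2a1b had 3.74 ± 2.35 (adjusted p = 0.539) and Mcl1 -0.33 ± 0.31 (adjusted p = 0.740 by edgeR). Bcl2a1d could not be estimated with 0 UMIs in BM. A rise in PB that passed the test and none in BM is thus not shown to differ between them.

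PB was then set against BM after the same injection. After PBS, Mcl1 was higher in PB, with 1.29 ± 0.23 on the log2 scale (adjusted p = 0.0115 by edgeR), 1 of the 4 genes where 2.61% of all genes were called. All 4 PB PBS plates, at 2005 to 2801 CPM, lay above all 6 BM PBS plates, at 504 to 840, as did 8.21% of 9919 genes. The Mcl1 call was lost without either PB PBS sample and with cells thinned before summing (adjusted p up to 0.0952). The Bcl2a1 copies did not pass, with adjusted p-values of 0.133 to 0.259, and the summed copies came to 0.0561.

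After LPS, 3 of the 4 genes were called higher in PB than in BM, where 3.73% of all genes were called. Bcl2a1b had a log2 fold change of 7.25 ± 1.30 (adjusted p = 0.00956), which became 11.27 without BM LPS sample 2, the sample with the cell of 38 UMIs. For Bcl2a1a, with 1373 UMIs in PB LPS and 0 in BM LPS, a floor of 3 counts over the group put the ratio at 595 or more (adjusted p = 0.00186 by edgeR). Bcl2a1d, with 599 UMIs against 0, came to 260 or more by the same floor, with an adjusted p of 0.0621. These bounds use the pooled counts of batch 7 alone and do not cover the spread between cells or plates. In batch 6 the pooled ratio of PB LPS to BM LPS was 135 for Bcl2a1a and 156 for Bcl2a1d, below these bounds. For Bcl2a1b it was 229, above the pooled ratio of 102 in batch 7. The batch 6 ratios rest on 6, 2 and 6 BM LPS UMIs. Mcl1 had 0.96 ± 0.22 (adjusted p = 0.0403), a call that was lost in 8 of 16 alternatives, among them library totals alone (0.38, adjusted p = 0.361). Bcl2a1a and Bcl2a1b stayed called in all 16.

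Ordered by TMM level over the labelled samples, Mcl1 stood at 1892 ± 128 CPM (SD, n = 2) in PB LPS, 1798 ± 77.5 in PB PBS, 973 ± 49.9 in BM LPS and 734 ± 197 in BM PBS. PB LPS and PB PBS overlapped, and BM LPS and BM PBS did not pass the test. PB PBS and BM LPS, the neighbours between them, were not tested against each other, and their samples did not overlap. The summed Bcl2a1 level was 570 ± 58.9 in PB LPS, 17.8 ± 20.03 in PB PBS, 2.23 ± 2.99 in BM LPS and 0.268 ± 0.168 in BM PBS, and PB LPS was called against PB PBS while the samples of the other neighbours overlapped.

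Other genes of the death machinery were taken from lists by role. Among the guards 6 of 9 were tested, and Bcl2l1, which encodes BCL-XL, rose in PB after LPS along with Bcl2a1a and Bcl2a1b. Bcl2l1 had 10.1 and 8.33 CPM in PB PBS and 207 and 165 in PB LPS, a log2 fold change of 5.23 ± 0.75 (adjusted p = 0.00218). Its call was kept in 15 of 16 alternatives. The 6 include the Bcl2a1 copies and Mcl1, so their median log2 fold change of 3.69, against -0.11 over all genes, in part restates those genes. The remaining guard, Bcl2l2, had at most 0.309 CPM in the PB samples and came to -0.68 ± 1.96 (adjusted p = 0.935 by edgeR). Bcl2 did not pass the filter on low counts, which asks for enough UMIs in at least 2 samples, with 36.3 and 1.23 CPM in PB PBS and 0 in the other labelled samples. The pore formers Bax (-2.58 ± 1.61, adjusted p = 0.449) and Bak1 (1.18 ± 1.59, adjusted p = 0.785) did not pass. Of 6 BH3-only genes tested 0 passed, where 3.94% of all genes tested were called, so 0 of so few says little. Bid was at 0.27 ± 0.57 (adjusted p = 0.887) and Pmaip1, which encodes the MCL1 and A1 binding protein NOXA, at -0.87 ± 1.62 (adjusted p = 0.864). Bcl2l11, which encodes BIM and is named here after its values were seen, had 13.9 and 4.01 CPM in PB PBS and 136 and 84.3 in PB LPS (4.504 ± 1.74, adjusted p = 0.229).

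Downstream of the mitochondria, 2 of 8 genes of the apoptosome and the caspases rose and 0 fell, where 3.94% of all genes tested were called. Casp8, the initiator caspase of death receptors, had 12.7 and 44.7 CPM in PB PBS and 285 and 246 in PB LPS (4.13 ± 0.73, adjusted p = 0.00898). Its call was kept in 15 of 16 alternatives. Apaf1, the scaffold of the apoptosome, had 9.12 and 11.4 and then 57.0 and 70.9 (3.56 ± 0.69, adjusted p = 0.0152), a call lost in 6 of 16 alternatives, among them library totals alone and thinned cells. Among the 4 caspase brakes Birc3, a ubiquitin ligase of the inhibitor of apoptosis family, rose with 2.73 ± 0.49 (adjusted p = 0.00932), whereas Cflar (1.80 ± 0.51, adjusted p = 0.0869) and Xiap (0.31 ± 0.59, adjusted p = 0.873) did not pass. The Birc3 call was kept in 13 of 16 alternatives, and library totals alone lost it.

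Of 5 tested genes whose proteins control the turnover of MCL1 protein, Gsk3b, a kinase that marks MCL1 for destruction, fell, beside 3.94% of all genes called. It had 188 and 100 CPM in PB PBS and 12.5 and 11.7 in PB LPS (-2.67 ± 0.63, adjusted p = 0.0407). The call was lost in 9 of 16 alternatives. Fbxw7 and Gsk3a did not pass, with 0.52 ± 1.05 (adjusted p = 0.881) and -0.09 ± 1.56 (adjusted p = 1).

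Among the survival receptors and their signalling genes 2 of 13 rose in PB after LPS, beside the 3.94% of all genes. Cd14, a co-receptor for LPS, had 87.3 and 126 CPM in PB PBS and 1173 and 1388 in PB LPS (4.51 ± 0.71, adjusted p = 0.00423). Its call was kept in 14 of 16 alternatives. Csf2rb, the shared chain of the GM-CSF receptor, had 517 and 744 and then 796 and 916 (1.36 ± 0.33, adjusted p = 0.0472), a call lost in 8 of 16 alternatives. Csf2ra (0.41 ± 0.28, adjusted p = 0.493) and Stat3 (0.65 ± 0.41, adjusted p = 0.454) did not pass. Csf3r, the receptor for G-CSF, and Myd88, the adaptor of Toll-like receptors, were higher in PB than in BM after PBS, by 1.31 ± 0.24 (adjusted p = 0.0158) and 1.98 ± 0.32 (adjusted p = 0.00762). Of 16 alternatives, 14 kept this call of Csf3r and 16 that of Myd88. After LPS, Cd14, Csf3r and Myd88 were called higher in PB, and of 16 alternatives 0 lost the call of Cd14, 2 that of Csf3r and 8 that of Myd88.

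Among NF-kB factors and inhibitors 2 of 12 rose, beside the same 3.94%. Nfkbia, the inhibitor that NF-kB itself induces, had 428 and 438 CPM in PB PBS, 2768 and 2176 in PB LPS, 258 and 258 in BM PBS and 313 and 344 in BM LPS. The groups of BM were close to each other, and both PB LPS samples were far above all others (3.42 ± 0.23, adjusted p = 8.1e-06). Nfkbiz rose by 1.70 ± 0.37 (adjusted p = 0.0284), a call lost in 7 of 16 alternatives. Both were called higher in PB than in BM after LPS, by 3.49 ± 0.23 (adjusted p = 1.89e-05) for Nfkbia and 1.66 ± 0.37 (adjusted p = 0.0301) for Nfkbiz, the latter lost in 8 of 16 alternatives. Nfkb1 (0.92 ± 0.45, adjusted p = 0.336) and Rela (0.0034 ± 0.71, adjusted p = 1) did not pass. In BM after LPS 0 genes of any of these lists were called by edgeR.

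Of the 9 listed genes other than the 4 that were called in PB after LPS, 7 also differed without overlap in the same direction between the batch 6 plates in CPM, 6 of them higher and Gsk3b lower. With 2 plates against 2, 10.6% of 9919 genes were higher and 38.3% lower in this way. Gsk3b overlapped there after TMM over the 17 plates, with 53.8 and 115 after PBS and 108 and 40.7 after LPS. Apaf1 overlapped in CPM, with 32.3 and 15.4 after PBS and 40.0 and 26.7 after LPS, and not after TMM. Nfkbiz was lower after LPS in CPM, with 629 and 556 after PBS and 284 and 296 after LPS, and overlapped after TMM, with 425 and 454 against 464 and 433.

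**Figure D5:**
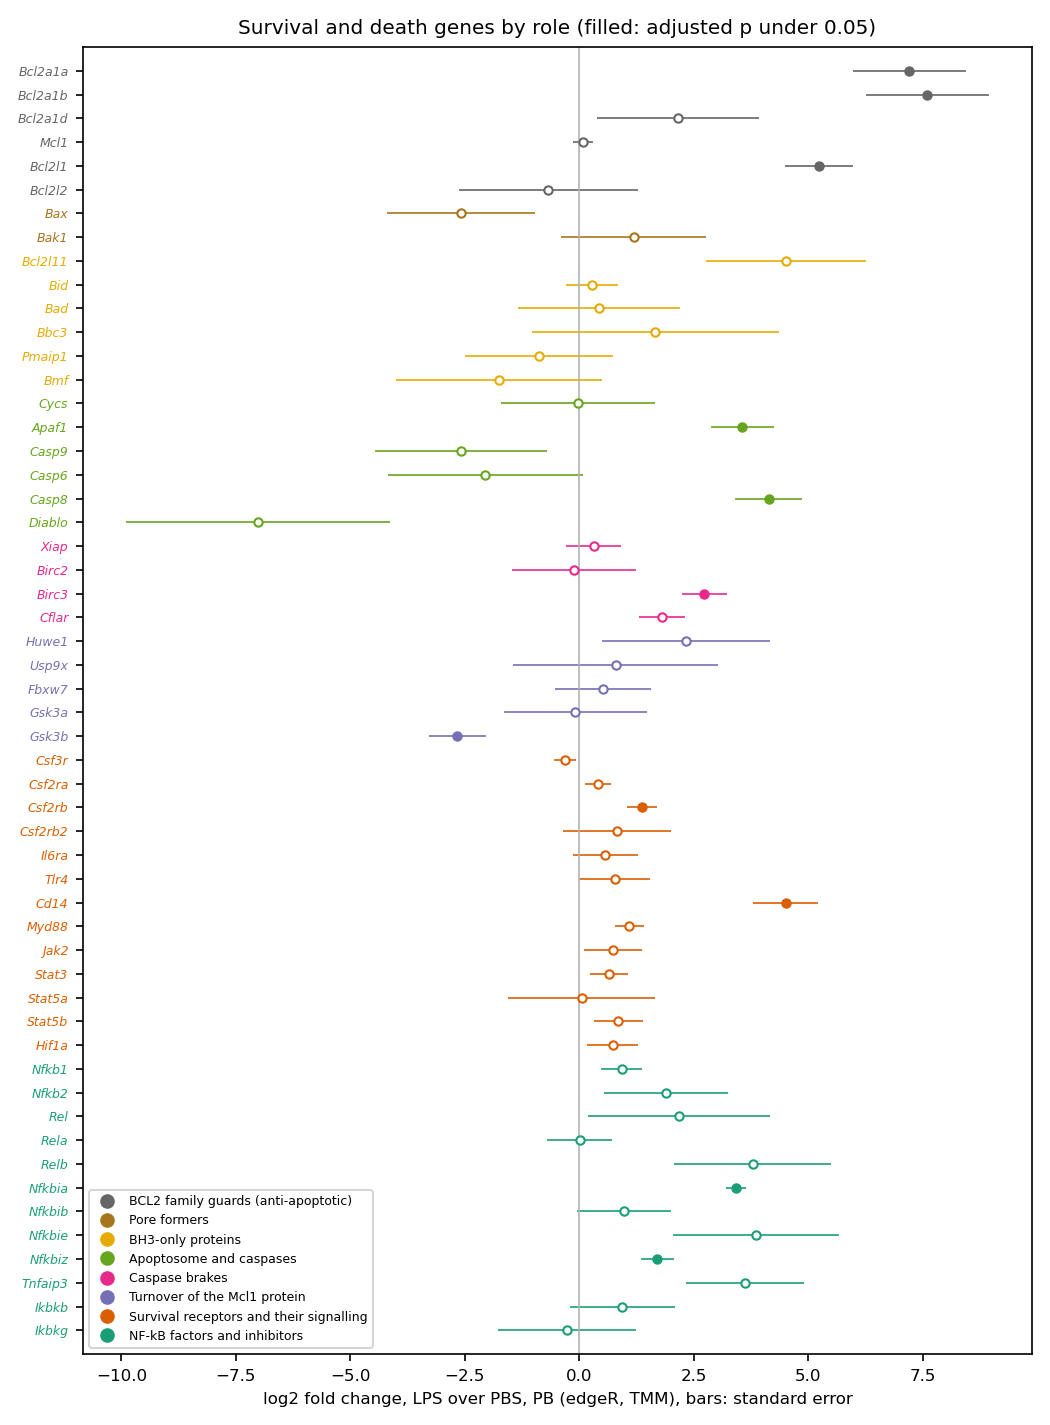
Log2 fold change of LPS over PBS in PB for tested genes of each role list, coloured by list (points, edgeR estimates with TMM from 2 samples a group; bars, standard error; filled, adjusted p under 0.05). Bcl2a1a, Bcl2a1b and Bcl2l1 stand at 5.23 to 7.60, and Mcl1, at 0.07 here, is at -0.84 with library totals alone.

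The genes whose log2 TMM level was most like that of each of the 4 over the 8 labelled samples are given as a description, since the samples form groups and share their libraries. For Bcl2a1b these were Ifi211, Psme2, Irgm1, Ikbke and Usp18, with Pearson's r of 0.98 to 0.99, and for Bcl2a1a Saa3, Isg15, Trafd1, Fth1 and Trim34a, with r of 0.98 to 0.99. Bcl2a1d followed Ccl5 most closely, with r of 0.99. Ccl5, a chemokine gene of T and NK cells and of inflamed tissue, had 270 and 1.23 CPM in the PB PBS samples, 252 and 109 in the PB LPS samples and 0 in BM. T and NK cell markers of the PB LPS samples summed to at most 1.70 and 0.340 CPM. Next to it came Upf2, Klf6, Irf1 and Asprv1, at 0.94 to 0.97. The genes most like Mcl1 were Ier5, Ifitm1, Ptprc, Junb and Msrb1, at 0.97 to 0.98. Ier5 and Junb are immediate early genes. Their levels were highest in PB PBS in CPM, the scale on which Mcl1 was also lower in PB LPS. Junb was at 2074 and 2128 in PB PBS, 1185 and 928 in PB LPS and 262 to 443 in BM. This order holds for CPM and was not given for the TMM levels that were correlated.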

How the data were processed

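SCRB-seq libraries were made from singly picked PB and BM neutrophils after PBS or LPS injection. Reads were trimmed by the authors with cutadapt 1.15 and mapped to mm9 with STAR 2.6.0a, UMIs were collapsed over reads with a unique position, and genes were counted with HTSeq 0.11.2, with the gene annotation not given in the sources used here. Cells outside the authors' limits on genes, UMIs and spike-ins had been removed. The table deposited by the authors holds UMI counts per gene and cell, and a second deposited table gives the cluster, batch and plate of each cell, its UMI count, and a fraction named for ERCC spike-ins, which was not used. The same set of cell barcodes serves every plate, as 95 of 96 cell numbers are found on more than 1 plate. Doublet removal is not given in the sources used here, and each cell was picked singly.

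Counts were summed per labelled sample. Genes in at least 10 cells that passed filterByExpr were tested with edgeR 4.0.16 (R 4.3.3; TMM, quasi-likelihood, group only, 4 groups in 1 fit) at an adjusted p of 0.05, after a check on simulated counts. DESeq2 1.42.0 was an alternative. SE is the log2 fold change divided by the root of F. Depth was 3240559 to 8361677 UMIs a sample, and a floor of 3 counts stands for 0. Shares of cells have 95% exact intervals after thinning to 5000 UMIs. Summarised values were computed with Python 3.11.15. The 4 genes and the role lists were chosen with earlier results of these data known. Named genes were the 4, every listed gene called in any comparison, the 2 most abundant others of each list (in 1 list these are not reported here), and the 5 most correlated genes of each of the 4 with a mean of at least 50 CPM.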

Additional observations from a re-analysis of the deposited data

Results flagged for a closer look

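The LPS effect on Nfkbia, the NF-kB inhibitor, differed between PB and BM by edgeR's interaction test. The log2 fold change of LPS over PBS was larger in PB than in BM by 3.26 ± 0.30 (SE, adjusted p = 0.000196, 2 samples a group), and both PB LPS samples, at 2768 and 2176 CPM, lay above the BM LPS samples at 313 and 344. The difference stayed called in 16 of 16 alternatives, with adjusted p-values of up to 0.00936. On the batch 6 plates Nfkbia was at 437 and 335 CPM in PB PBS and 2787 and 2795 in PB LPS. It was at 196 to 283 in BM PBS and 133 in BM LPS there.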

How the results depend on the processing

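Of 336 repeated values for the 4 genes and their sum, 281 kept direction and side of the threshold, 19 lost the call, 22 gained it and 14 reversed. Of 272 for the other listed genes, 215 kept both, 57 lost the call and 0 reversed. For LPS in PB, 2 of the 4 genes were called, and 0 to 2 when 1 sample was left out. The PB minus BM difference had 0 calls and came to 1 with DESeq2, without the filter and with both batches, and to 0 to 1 with 1 sample left out. PB against BM after PBS had 1 call and came to 2 with DESeq2, 0 with thinned cells, 3 with both batches and 0 to 1 with 1 sample left out. The cause was not tested.

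Mcl1 after LPS in PB reversed from 0.07 to -0.84 with library totals alone, -0.012 with DESeq2 and with its size factors in edgeR, -0.0018 with thinned cells, -0.13 without cells with lymphocyte markers and -0.12 with both batches, and to -0.042 and -0.034 without PB PBS sample 1 and PB LPS sample 1, within -0.042 to 0.12 over the samples left out. The summed copies in PB went to 4.08 with library totals alone, and to 4.12 to 7.22 with 1 sample left out. In BM, thinning gave -2.48 for Bcl2a1b, -2.49 for the sum and -0.10 for Mcl1, and leaving out BM LPS sample 2 gave -0.17 for Bcl2a1b and -1.08 for the sum, within -0.17 to 6.82 and -1.08 to 3.87 over the samples left out. The Mcl1 difference became 0.10 with thinned cells. Shares of cells with any Bcl2a1 UMI, as group means, were 13.5% in PB PBS, 70.5% in PB LPS, 1.69% in BM PBS and 1.09% in BM LPS unthinned, and 27.0% in PB LPS and 0.543% in BM LPS at 2500 UMIs.

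Over all genes DESeq2 called 1057 for LPS in PB against 334 by edgeR, 196 against 6 in BM, 500 against 127 for the difference, 962 against 221 for PB against BM after PBS and 951 against 316 after LPS. Leaving out 1 sample gave 146 to 400, 2 to 28, 80 to 168, 108 to 342 and 144 to 382. Library totals alone gave 64 for the difference.

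Samples with the same replicate number share only a number in the labels, and their deviations correlated at -0.0163 to 0.0044. With the replicate number as a block, LPS in PB still called 2 of the 4 genes, with 7.18 for Bcl2a1a, 8.07 for Bcl2a1b and 4.89 for the sum, and PB against BM after LPS called 4, Bcl2a1d included, in place of 3.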
